A study of Mus musculus with 45 samples.

Results

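Forelimb buds of gestation day 13 CD1 mouse embryos were kept in bottle culture for 3 h with bisphenol AF (BPAF), a fluorinated relative of the plastics monomer bisphenol A, and the 5 µM dose was set against the 1 µM dose. The 10 libraries were selected by dose and time from 45 in the series. They are 5 libraries at 5 µM BPAF and 5 at 1 µM BPAF. A further 5 libraries from buds that received only the solvent, dimethyl sulfoxide (DMSO), served to place both doses. Buds of both doses and of the control share strain, age and the kind of medium and bottle, though not the same bottle. Limbs were placed together without regard to sex. Each library is therefore a mixture of limbs, not a single embryo. The labels do not say that the replicates were separate experiments, so the p-values measure the spread between these libraries, part of which may be technical.

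Some of the libraries carry a doubt. The library named 1 µM replicate 5 in its title and library code has a treatment entry of 10 uM BPA. It was kept as 1 µM BPAF, and results are also given without it. Although the culture protocol mixes the sexes, the 4 Y-linked genes Ddx3y, Eif2s3y, Kdm5d and Uty together were near 0 in 1 µM replicate 1 (0.473 CPM) and in DMSO replicate 3 (0.105 CPM), against 76.7 to 200 CPM in the other libraries at 3 h. These libraries lie apart from the rest on the first principal component, which held 17.5% of the variance over 11971 genes. Between 17149005 and 18933660 reads were counted per library at 5 µM, between 16896389 and 19723262 at 1 µM, and between 15830793 and 19100366 with DMSO. Limb markers were checked in all 10 libraries. Tbx5, the forelimb transcription factor, lay at 268 to 310 CPM (TMM-scaled counts, brought to a common library size), the limb mesenchyme factor Prrx1 at 515 to 582 CPM, and the hindlimb factors Pitx1 and Tbx4 at 4.01 to 8.10 and 19.7 to 24.2 CPM.

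The endoplasmic reticulum (ER) folds secreted and membrane proteins, and a limb bud that lays down cartilage matrix depends on it. When unfolded proteins accumulate there, the sensors ATF6, IRE1 and PERK start the unfolded protein response. ATF6 and the spliced form of XBP1 then switch on chaperones such as the protein of Hspa5 (BiP). PERK acts through ATF4 on amino acid genes and on stress genes such as Trib3. Chaperones of the cytosol belong to a separate program driven by heat shock factor.

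Within 3 h the higher dose gave more mRNA of ER chaperones and of Xbp1 than the lower dose, by small amounts. Of 16681 genes tested, 6 passed an adjusted p of 0.05, that is 0.036%. The 5 that rose (0.03%) were the ER genes Hspa5, Hyou1, Xbp1 and Dnajc3 and the arrestin-domain gene Arrdc3. The single gene that fell was Arrdc4 (0.00599%). None of the 6 changed 2-fold, and the steepest difference was 0.40 on the log2 scale. At an unadjusted p under 0.05 there were 487 higher and 502 lower genes (2.92% and 3.01%). The test was edgeR's quasi-likelihood F-test with Benjamini-Hochberg adjustment over all genes tested.

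Libraries with the same replicate number at 5 and 1 µM deviated from their group means in the same direction, with correlations of 0.154 to 0.404 over 11971 genes, against -0.294 to 0.129 between unlike numbers. The comparison was therefore also fitted with the replicate number as a block. This fit called 50 genes, 28 higher and 22 lower (0.3% of those tested, 0.168% higher and 0.132% lower), and held all 6 of the genes above. Of the 50, 45 differed in the same direction in all 5 pairs. The fit picked these genes by the same pair differences, so this agreement follows in part from the selection. Below, a gene is called only when it passed without the block, and the block is named where it adds a call.

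Hspa5 encodes BiP, the chief chaperone of the ER lumen. It had 779, 870.0, 852, 804 and 944 CPM in the 5 µM libraries, replicates 1 to 5, against 566, 664, 655, 600.5 and 744 CPM in the 1 µM libraries. The lowest 5 µM library was above the highest 1 µM library, and each 5 µM library was above its same-numbered partner. The means were 849.8 ± 63.8 CPM at 5 µM and 646 ± 68.1 CPM at 1 µM (SD, n = 5 each), a rise of 0.40 ± 0.07 on the log2 scale (SE) or 1.32-fold (edgeR adjusted p = 0.0344, and 4.02e-06 with the replicate block). DMSO libraries averaged 644 ± 49.7 CPM.

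Xbp1, whose spliced mRNA encodes a transcription factor of the unfolded protein response, had 112, 128, 123.5, 118 and 137 CPM at 5 µM, against 84.5, 95.2, 93.8, 94.0 and 99.3 CPM at 1 µM. The groups did not overlap, and the means of 124 ± 9.80 and 93.4 ± 5.45 CPM (SD, n = 5 each) differ by 0.40 ± 0.06 on the log2 scale (edgeR adjusted p = 0.0118). The gene counts do not tell spliced from unspliced Xbp1. Hyou1, an ER chaperone of the large Hsp70 type that helps BiP exchange its nucleotide, had 189, 205, 198, 199.8 and 201 CPM at 5 µM, against 151, 160.3, 161, 165 and 156 CPM at 1 µM. Its rise of 0.32 ± 0.04 was the most regular over the pairs among the 6 called genes, with single differences between 0.28 and 0.36 (edgeR adjusted p = 0.0105).

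Dnajc3 encodes p58IPK, an ER co-chaperone of BiP. It had 75.0, 77.3, 77.0, 74.5 and 89.6 CPM at 5 µM, against 60.4, 61.4, 64.0, 54.8 and 57.2 CPM at 1 µM, so that replicate 5 of the higher dose stood above the rest. The groups did not overlap. The rise was 0.40 ± 0.06 (edgeR adjusted p = 0.0118). Without both libraries numbered 5 it was 0.33 and did not pass (edgeR adjusted p = 0.0965), while the fit with the block and without that pair still gave an adjusted p of 0.0122.

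In build mm10, as the deposited annotation gives it, these genes are protein-coding and lie at chr2:34771970-34777547 (Hspa5, ENSMUSG00000026864), chr11:5520659-5525893 (Xbp1, ENSMUSG00000020484), chr9:44379490-44392369 (Hyou1, ENSMUSG00000032115) and chr14:118937976-118981697 (Dnajc3, ENSMUSG00000022136). The arrestin-domain genes described below lie at chr13:80883384-80896042 (Arrdc3, ENSMUSG00000074794) and chr7:68736995-68749241 (Arrdc4, ENSMUSG00000042659).

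**Figure D1:**
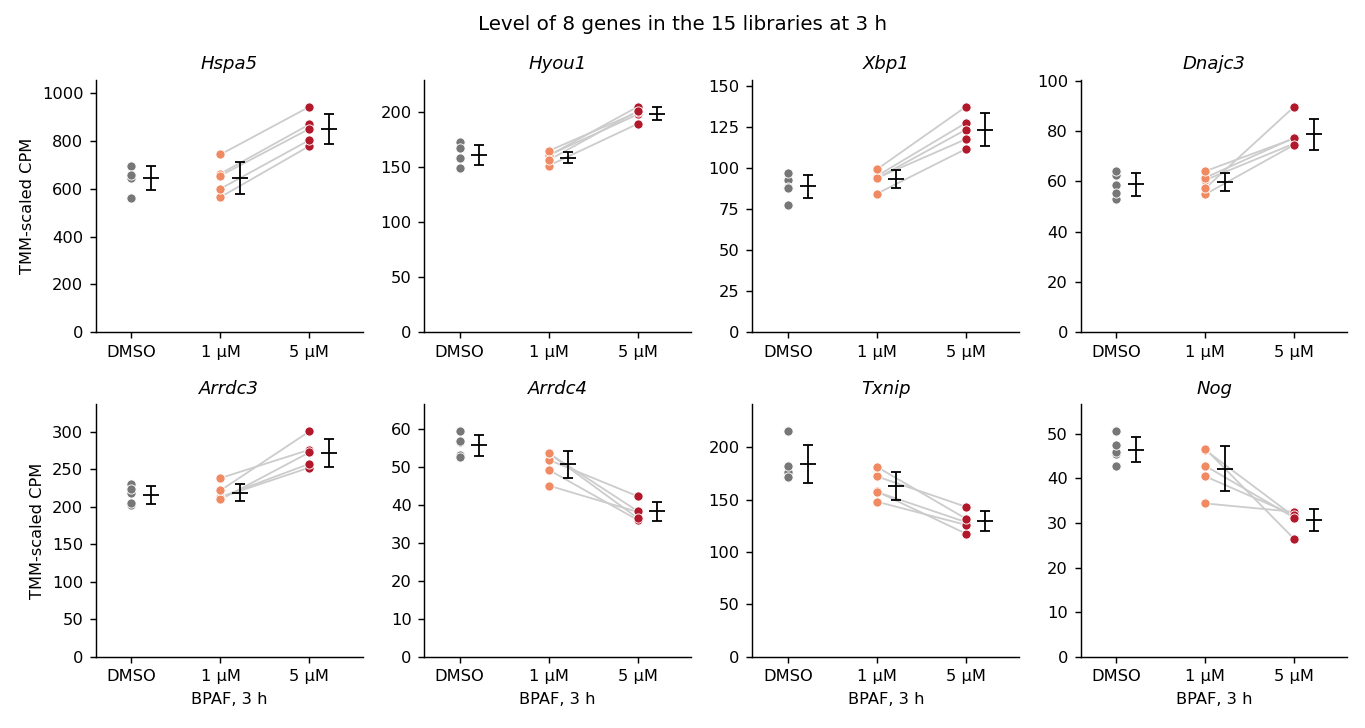
TMM-scaled CPM of 8 genes in single libraries at 3 h (points), with DMSO, 1 µM and 5 µM BPAF from left to right, grey lines between same-numbered 1 and 5 µM libraries, and mean ± SD beside each group of 5. For Hspa5, Hyou1, Xbp1, Dnajc3 and Arrdc3 all 5 µM points lie above all 1 µM points, and for Arrdc4, Txnip and Nog all lie below.

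Most listed ER genes differed in the same direction. The list holds 25 chaperones, folding enzymes and stress factors of the ER, all of them measured. It includes Hspa5, Hyou1, Xbp1 and Dnajc3, which are its 4 called members and enter every count and median given here. Of the 25, 4 were called higher and 0 lower, against 0.03% higher among all genes, and 10 were called higher with the replicate block. At an unadjusted p under 0.05, 19 were higher and 1 was lower. The median difference was 0.23 on the log2 scale, while the median over all genes tested was 0.0012. In 12 of the 25 all 5 µM libraries were above all 1 µM libraries, which was so for 0.504% of all genes, and 24 of the 25 lay above 0, against 50.4% of all genes.

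The lumenal chaperones Hsp90b1 (GRP94) and Calr (calreticulin) and the membrane chaperone Canx (calnexin) were not called without the block. Hsp90b1 had 591, 636, 656, 574 and 623 CPM at 5 µM, against 483, 541, 522, 468 and 529 CPM at 1 µM, which do not overlap (0.28 ± 0.05, edgeR adjusted p = 0.0580, and 0.000652 with the replicate block). Calr differed by 0.27 ± 0.06 (edgeR adjusted p = 0.296, and 0.000889 with the block), and Canx by 0.23 ± 0.05 (edgeR adjusted p = 0.127, and 0.00985 with the block). The secreted ER stress protein Manf had 94.4, 105, 89.1, 93.6 and 109 CPM at 5 µM, against 75.6, 85.1, 73.3, 75.8 and 84.4 CPM at 1 µM. It differed by 0.32 ± 0.06 (edgeR adjusted p = 0.0843, and 0.000621 with the block).

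Of the disulfide-bond enzymes, Pdia4 differed by 0.26 ± 0.05 (edgeR adjusted p = 0.117, and 0.00451 with the block), and Pdia6, P4hb and Pdia3 by 0.16 ± 0.05, 0.11 ± 0.04 and 0.14 ± 0.06, with no call in either fit. Dnajb9, an ER co-chaperone that restrains IRE1, was called only with the block (0.36 ± 0.09, edgeR adjusted p = 0.0384). Derl3, a degradation factor of the ER membrane, had the steepest value of the list at 0.83 ± 0.21, at a mean of 4.59 CPM at 5 µM and 2.58 CPM at 1 µM, and was called in neither fit. The sensors themselves, Atf6 and Ern1 (IRE1), differed by 0.03 ± 0.05 and 0.06 ± 0.09. The one member below 0 was Sec61b, a subunit of the translocon, at -0.20 ± 0.08 (edgeR adjusted p = 0.832).

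ER genes outside the list were among those with the next smallest p. Serp1, which protects membrane proteins during ER stress, had 248, 242.5, 229.5, 232.5 and 251.5 CPM at 5 µM, against 196, 207, 199, 209 and 201 CPM at 1 µM. The groups did not overlap (0.25 ± 0.04, edgeR adjusted p = 0.0517, and 0.00559 with the block). Txndc11, an ER thioredoxin-domain protein, Magt1, a subunit of the oligosaccharyltransferase and Selenos, a selenoprotein of ER degradation, differed by 0.25 ± 0.05, 0.21 ± 0.05 and 0.30 ± 0.07, each called only with the block. Ide, a peptidase that degrades insulin, differed by 0.23 ± 0.05 and was called in neither fit (edgeR adjusted p = 0.181 without the block).

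The promoters of the ER genes are shown because many carry the ER stress response element, the site to which ATF6 binds together with NF-Y. The element was searched on both strands as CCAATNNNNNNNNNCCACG in RefSeq promoter windows of build GRCm38.p6, from 250 bases before to 50 bases after the start. It occurred in 35 of 27025 windows (0.13%) and in 9 of the 22 windows of listed ER genes (40.9%), which are those of Calr, Canx, Creld2, Derl3, Dnajc3, Hsp90b1, Hspa5, Pdia6 and Syvn1. Capitals mark its 2 fixed ends, and each copy is written 5′ to 3′ on its own strand.
Hspa5, chr2:34772025-34772043, + strand: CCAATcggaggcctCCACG
Dnajc3, chr14:118937827-118937845, + strand: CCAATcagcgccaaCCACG
Hsp90b1, chr10:86705638-86705656, - strand: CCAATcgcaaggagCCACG
Hsp90b1, chr10:86705533-86705551, + strand: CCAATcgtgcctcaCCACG
Calr, chr8:84847075-84847093, + strand: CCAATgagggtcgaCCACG
Canx, chr11:50325800-50325818, - strand: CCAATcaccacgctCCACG
Creld2, chr15:88819520-88819538, - strand: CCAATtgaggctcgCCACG
Derl3, chr10:75893242-75893260, - strand: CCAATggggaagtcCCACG
Pdia6, chr12:17266491-17266509, + strand: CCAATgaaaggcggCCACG
Syvn1, chr19:6046532-6046550, + strand: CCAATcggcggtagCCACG

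The 250 bases before the RefSeq start of Hspa5, chr2:34771840-34772089 on the + strand, show the element in capitals 65 bases before that start. The deposited annotation begins the gene earlier, at 34771970, so by that annotation the element lies inside the gene.
Hspa5 promoter: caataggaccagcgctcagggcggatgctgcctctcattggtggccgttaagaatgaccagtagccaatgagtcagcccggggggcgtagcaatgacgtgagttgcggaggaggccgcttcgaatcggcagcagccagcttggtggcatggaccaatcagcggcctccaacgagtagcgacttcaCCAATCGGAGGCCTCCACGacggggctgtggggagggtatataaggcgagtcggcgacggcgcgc

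All 9 listed genes with the element lay above 0, between 0.16 and 0.83 with a median of 0.27. The 13 listed genes whose window lacks it had a median of 0.12, with 12 above 0. An unadjusted p under 0.05 was met by all 9 with the element and by 9 of the 13 without it. Among tested genes outside the list, 10 carried the element: 8 lay above 0, the median was 0.062 and 0 had an unadjusted p under 0.05. These are descriptions of sequence and level. The Xbp1 window, chr11:5520391-5520690, held no match to these letters. Of the 13 windows without the element, 2 held the related element ERSE-II, those of Dnajb11 and Herpud1, against 0.037% of all windows. Only 22 of the 25 listed genes had a window. Hyou1 and Manf are among those without one, which are in neither group.

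Arrestin-domain genes split by member. Arrdc3 and Arrdc4 encode adaptors that send surface receptors and transporters into endosomes, and their relative Txnip binds thioredoxin and lowers glucose uptake. Arrdc3 rose: it had 252, 276, 257, 272 and 300.4 CPM at 5 µM, against 212, 238, 213, 209.7 and 222 CPM at 1 µM. The groups did not overlap, and the rise was 0.31 ± 0.05 (edgeR adjusted p = 0.0460). Arrdc4 fell: it had 38.1, 35.97, 42.2, 38.3 and 36.5 CPM at 5 µM, against 45.0, 49.1, 51.8, 53.5 and 53.5 CPM at 1 µM. It fell by 0.40 ± 0.06 on the log2 scale (edgeR adjusted p = 0.0232). Txnip had 117.5, 128, 143, 126 and 132 CPM at 5 µM, against 158, 157, 172, 148 and 181 CPM at 1 µM, again without overlap, which was so for 0.647% of all genes in the lower direction. Its value of -0.34 ± 0.06 passed only with the block (edgeR adjusted p = 0.0520 without and 0.000398 with it).

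No other member of that list passed in either fit. Of its 8 measured members, 1 was called higher and 1 lower, and the transcription factors that drive Txnip and Arrdc4 when glucose is plentiful, Mlx, Mlxip and Mlxipl, differed by 0.07 ± 0.07, 0.02 ± 0.06 and 0.17 ± 0.22. Without the doubtful 1 µM replicate 5, 4 genes were called, which were Hspa5, Hyou1, Xbp1 and Dnajc3 (edgeR adjusted p between 0.0153 and 0.0473), and Arrdc3 and Arrdc4 did not pass (edgeR adjusted p = 0.128 and 0.0889). Without both libraries numbered 5, only Hspa5 of the 6 passed (edgeR adjusted p = 0.0453).

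Tubulin mRNAs had lower values at the higher dose. Tubulins form microtubules, and their mRNAs are known to be degraded when free tubulin dimers are abundant. All 12 measured alpha, beta and gamma tubulins lay below 0, against 49.6% of all genes, with a median of -0.29. Of these 0 were called without the block and 6 were called lower with it, against 0.132% of all genes lower with the block, and 9 were lower at an unadjusted p under 0.05 (3.01% of all genes). Tubulin genes are similar in sequence, so that their values are uncertain where reads could be shared between copies.

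Tubb4b had 199, 179, 166, 167 and 186 CPM at 5 µM, against 210, 235.5, 212, 217 and 233 CPM at 1 µM, without overlap (-0.30 ± 0.06, edgeR adjusted p = 0.0520, and 0.00126 with the block). Tubb2a had 52.7, 34.9, 50.9, 40.9 and 38.2 CPM at 5 µM, against 68.0, 52.1, 59.8, 53.8 and 55.7 CPM at 1 µM. These ranges overlap narrowly, yet each 5 µM library was below its partner (-0.41 ± 0.10, edgeR adjusted p = 0.304, and 0.000421 with the block). The other 4 that passed with the block were Tuba1a, Tubb5, Tubb6 and Tubb2b, at -0.32 ± 0.08, -0.23 ± 0.07, -0.30 ± 0.10 and -0.27 ± 0.09.

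Tubb5 had 2195, 1790, 1690, 1751 and 1912 CPM at 5 µM, against 2322, 2300, 1887, 2165 and 2251 CPM at 1 µM. Replicates 1 and 5 of the higher dose lie above the lowest library of the lower dose, yet each 5 µM library was below its partner. Replicate 1 is also the 5 µM library with the highest Tuba1a and Tubb4b, and without pair 1 the fit with the block called 153 genes, 47 higher and 106 lower, in place of 50.

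**Figure D2:**
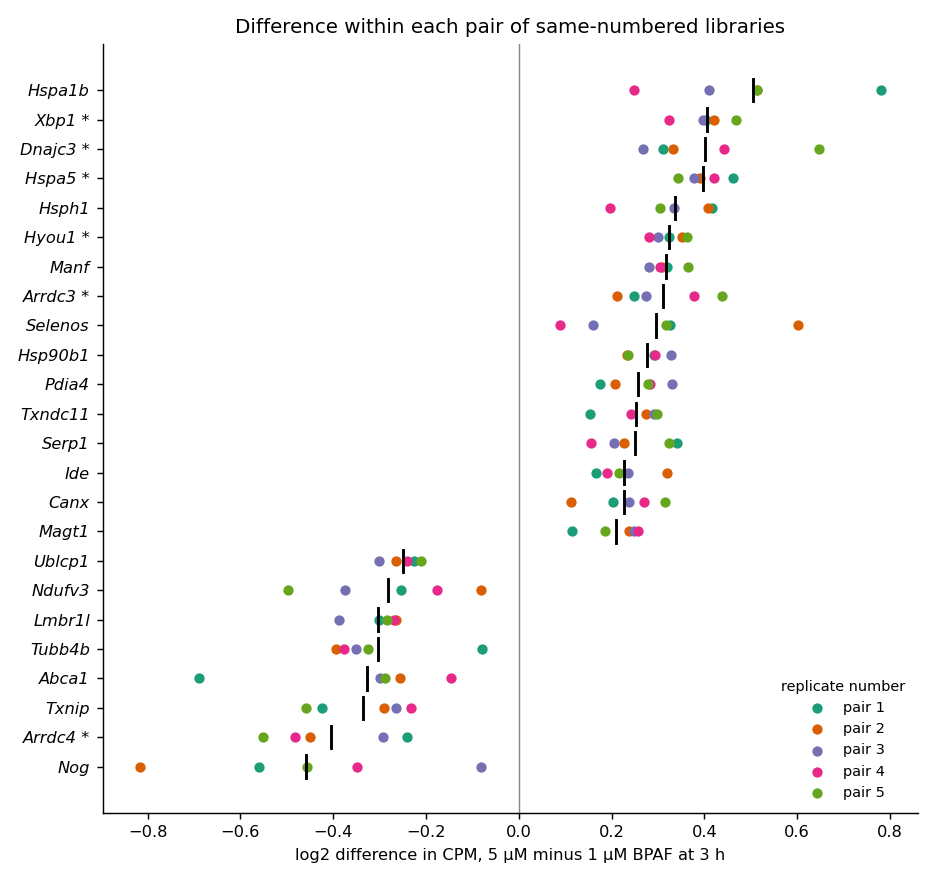
Differences of 24 genes in log2 CPM, 5 µM minus 1 µM BPAF at 3 h, for each pair of same-numbered libraries (coloured points) and from the fit over all 10 libraries (black bars). An asterisk marks the 6 called genes. For these 24 genes every pair lies on the same side of 0. They were picked by their p in the same libraries, so this is no separate support.

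Cytosolic chaperones were measured as a contrast to those of the ER. Of 18 heat shock genes 0 were called without the block and 3 were called higher with it, against 0.168% of all genes. Of the 18, 16 lay above 0, against 50.4% of all genes, with a median of 0.063. Hspa1b, the inducible Hsp70, had 29.0, 24.2, 25.5, 18.7 and 25.6 CPM at 5 µM, against 16.8, 16.9, 19.1, 15.8 and 17.9 CPM at 1 µM. Only replicate 4 of the higher dose lay within the range of the lower one (0.51 ± 0.10, edgeR adjusted p = 0.0908, and 0.00479 with the block). Hsph1, a cytosolic Hsp110, differed by 0.34 ± 0.08 and the constitutive Hsp70 gene Hspa8 by 0.24 ± 0.07, both called only with the block. Dnajb1 and Bag3, which are also heat-inducible, differed by 0.01 ± 0.06 each. Hspa1b has the near-identical neighbour copy Hspa1a (0.13 ± 0.21), and reads may be shared between them.

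The PERK and ATF4 branch was measured by targets of ATF4. Of 32 genes of ATF4 and amino acid stress 0 were called without the block and 1 with it, at shares of 0.036% and 0.3% over all genes, so that these counts do not set the list apart. Its median was 0.031. Trib3, a pseudokinase target of this branch, differed by 0.00 ± 0.10, and Ddit3, the transcription factor CHOP, by 0.12 ± 0.07. The one member called with the block, Ddit4, an inhibitor of mTORC1 that also answers to hypoxia, was lower (-0.27 ± 0.06, edgeR adjusted p = 0.00985 with the block). Of the 20 aminoacyl-tRNA synthetases, which ATF4 also drives, 0 had an unadjusted p under 0.05, against 2.92% higher and 3.01% lower over all genes.

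Of the signalling genes, the BMP inhibitor Nog (noggin), which limits cartilage formation in the limb, had 31.4, 26.4, 32.5, 31.7 and 31.2 CPM at 5 µM, against 46.4, 46.7, 34.4, 40.5 and 42.8 CPM at 1 µM. The groups did not overlap, although pair 3 differed by no more than 0.08 on the log2 scale. The value of -0.46 ± 0.08 passed only with the block (edgeR adjusted p = 0.0520 without and 0.00485 with it). Id1, a direct BMP target, had 134, 125, 136, 122 and 146 CPM at 5 µM, against 106, 108, 116, 119 and 119 CPM at 1 µM (0.22 ± 0.06, edgeR adjusted p = 0.338, and 0.0362 with the block). The other 25 measured genes of the BMP list passed in neither fit, and the list median was 0.019.

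Sterol genes were mixed. Abca1, a cholesterol exporter and liver X receptor target, had 49.5, 61.5, 65.8, 69.2 and 57.7 CPM at 5 µM, against 79.9, 73.5, 81.0, 76.6 and 70.5 CPM at 1 µM, without overlap (-0.33 ± 0.07, edgeR adjusted p = 0.187, and 0.00589 with the block). Abcg1, another exporter under that receptor, had 9.27, 8.83, 12.4, 10.3 and 12.02 CPM at 5 µM, against 15.9, 15.7, 13.6, 14.8 and 11.9 CPM at 1 µM (-0.44 ± 0.12, called in neither fit). Over all 15 measured genes of the list the median was 0.003. Of 25 cholesterol synthesis genes 0 were called, against 0.036% of all genes. Of them 19 lay above 0, against 50.4% of all genes, with a median of 0.073. Hmgcs1, an early enzyme of the pathway, and Srebf1, a lipogenic transcription factor, differed by 0.14 ± 0.09 and -0.14 ± 0.07. Among the 24 genes of smallest p that belong to none of these groups, Ndufv3, a subunit of mitochondrial complex I, and Lmbr1l, a membrane receptor, differed by -0.28 ± 0.06 and -0.30 ± 0.07 and passed with the block, while Ublcp1, a phosphatase, differed by -0.25 ± 0.06 and passed in neither fit.

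Of 33 glycolysis and hypoxia genes 30 lay below 0, against 49.6% of all genes, with a median of -0.096. Without the block 0 were called, against 0.036% of all genes, and with it Ddit4 was called lower. At an unadjusted p under 0.05, 6 were lower and 0 higher, against 3.01% and 2.92% of all genes. The summed level of the list had a median of 5280 CPM at 5 µM and 5329 CPM at 1 µM, with overlapping ranges. The lowest p of that list other than that of Ddit4 belonged to Higd1a, a mitochondrial hypoxia protein, at -0.35 ± 0.10 (edgeR adjusted p = 0.547). Of the genes tied to receptors often discussed for bisphenols, Cyp1a1, Cyp1b1, Greb1 and Esr1 were called in neither fit of all 10 libraries. Cyp1a1, a target of the aryl hydrocarbon receptor, lay between 5.69 and 21.0 CPM at 5 µM and between 6.96 and 24.3 CPM at 1 µM (-0.46 ± 0.31). It was lower at 5 µM in all 5 pairs, with log2 differences between -1.304 and -0.065, and with the block the value was -0.50 ± 0.13 (edgeR adjusted p = 0.121). It passed in 1 of 24 settings, the block without pair 1 (edgeR adjusted p = 0.0299). Cyp1b1, another target of that receptor, differed by -0.04 ± 0.27. All 7 measured genes of this receptor's list lay below 0, against 49.6% of all genes, with a median of -0.12. Of them 0 had an unadjusted p under 0.05, against 2.92% higher and 3.01% lower over all genes. The estrogen target Greb1 differed by 0.10 ± 0.16, and the estrogen receptor gene Esr1, at a mean of 1.77 CPM at 5 µM and 1.35 CPM at 1 µM, by 0.39 ± 0.34. In the estrogen list of 17 measured genes, Xbp1, which is also an ER gene, was the one called.

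Cartilage, muscle and cell cycle genes were also measured at 3 h. Of the chondrocyte (25 measured), skeletal muscle (30), limb patterning (37), p53 (25), G1/S (28) and G2/M (26) genes 0 were called in either fit, which at shares of 0.036% and 0.3% over all genes does not set them apart. The list medians lay between -0.038 and 0.022. Sox9, the regulator of cartilage, differed by -0.09 ± 0.06, Col2a1, the cartilage collagen, by 0.04 ± 0.08, and Runx2, the bone factor, by 0.05 ± 0.09. Of the 40 lists, 31 held no gene called in either fit.

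**Figure D3:**
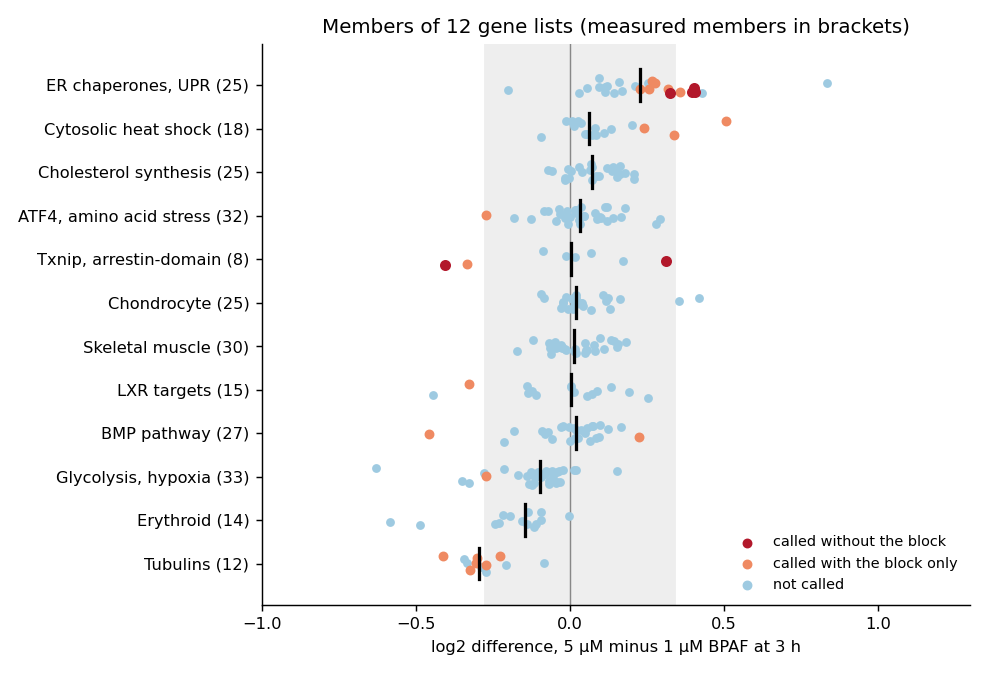
Difference between 5 and 1 µM BPAF at 3 h (log2) for the measured members of 12 lists (points) with the list median (black bar), over a grey band that spans the 5th to 95th percentile of all genes tested, -0.277 to 0.342. The ER list is displaced to the right with a median of 0.23 and the tubulins to the left with a median of -0.29, while the chondrocyte and muscle medians lie at 0.021 and 0.015.

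Red cell genes lay below 0 in the fit, although the median libraries of both doses were close. All 14 measured erythroid genes lay below 0, against 49.6% of all genes (median -0.15, 0 called). Haemoglobin genes took 0.184% to 0.256% of reads at 5 µM (median 0.245%), against 0.231% to 0.323% at 1 µM (median 0.247%). The summed level of the list was 1942 to 2691 CPM at 5 µM (median 2573 CPM) and 2462 to 3376 CPM at 1 µM (median 2592 CPM). Both ranges overlap between the doses. With the haemoglobin level as a covariate 0 genes were called (lowest adjusted p of the 6 at 0.155), and the 6 differences kept their sign, at 0.31 for Hyou1, 0.35 for Xbp1 and Hspa5, 0.38 for Dnajc3, 0.29 for Arrdc3 and -0.38 for Arrdc4. In a mixture of cells, fewer cells of a type and less RNA per cell cannot be told apart. The part of red cells in the other results was not tested. Summed levels overlapped between 5 and 1 µM for the macrophage list (116 to 141 and 113 to 147 CPM), the endothelial list (746 to 890 and 787 to 902 CPM) and the epidermal list (864 to 1096 and 659 to 1028 CPM). Of 18 macrophage genes 11 lay above 0, and of 22 epidermal genes 16, against 50.4% of all genes. Of 21 endothelial genes 17 lay below 0. At an unadjusted p under 0.05, 2 endothelial genes were lower and 3 epidermal genes higher, against 3.01% and 2.92% of all genes. For the macrophage list there were 0.

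The 4 Y-linked genes together lay at 84.9 to 200 CPM at 5 µM, against 0.473 to 183 CPM at 1 µM, where replicate 1 holds almost none. Neither these genes nor Xist had an unadjusted p under 0.05. Without that library 4 genes were called: Xbp1, Dnajc3, Hyou1 and Arrdc4 passed, while Hspa5 and Arrdc3 did not (edgeR adjusted p = 0.0876 and 0.105). With the level of those genes as a covariate the same 4 passed. Single libraries moved the count further: without 1 µM replicate 4 there was 1 call and without 5 µM replicate 5 there were 3, against 1 to 9 over the 10 single omissions.

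Set against DMSO, the 5 genes that rose were near the control at the lower dose and above it at the higher one. At 1 µM no gene of 16631 was called against DMSO (0%, and 424 at an unadjusted p under 0.05 or 2.55%, with 0 calls by DESeq2 and 0 by limma-voom). Hspa5, Hyou1, Xbp1, Dnajc3 and Arrdc3 differed there by 0.00 ± 0.07, -0.02 ± 0.05, 0.07 ± 0.06, 0.02 ± 0.06 and 0.02 ± 0.05. At 5 µM 30 of 16651 genes were called against DMSO (0.18%, with 0.114% higher and 0.0661% lower), with Hspa5, Hyou1, Xbp1, Dnajc3 and Arrdc3 at 0.40 ± 0.06, 0.30 ± 0.05, 0.48 ± 0.06, 0.42 ± 0.06 and 0.33 ± 0.05. This comparison shares its 5 µM libraries with that of the doses, and the one at 1 µM shares its 1 µM libraries, so neither is independent of the values above. For 1 µM against DMSO the doubtful replicate 5 changed no call.

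Other named genes lay lower with each dose. Means in the order DMSO, 1 µM and 5 µM were 55.6, 50.6 and 38.2 CPM for Arrdc4, 184, 163 and 129 CPM for Txnip, 46.4, 42.1 and 30.7 CPM for Nog, 85.1, 76.3 and 60.7 CPM for Abca1 and 18.4, 14.4 and 10.6 CPM for Abcg1. At 1 µM against DMSO these 5 differed by -0.14 ± 0.06, -0.17 ± 0.07, -0.14 ± 0.08, -0.16 ± 0.07 and -0.35 ± 0.10, and none was called (Abcg1 had the smallest unadjusted edgeR p of them, 0.00229). At 5 µM against DMSO all 5 were called lower, between -0.49 ± 0.08 for Abca1 and -0.79 ± 0.11 for Abcg1.

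The dose difference at 24 and 48 h was taken from 1 fit over the 30 BPAF libraries of the 3 times. Of the 25 ER genes 22 lay above 0 at 24 h and 24 at 48 h. Hspa5 differed between 5 and 1 µM by 0.40 ± 0.07 at 3 h, 0.24 ± 0.07 at 24 h and 0.21 ± 0.07 at 48 h, and Xbp1 by 0.40 ± 0.06, 0.09 ± 0.06 and 0.16 ± 0.06. The change over time in these genes was not called, as 24 h minus 3 h for Xbp1 was -0.31 (edgeR adjusted p = 0.139) and 48 h minus 3 h was -0.24 (edgeR adjusted p = 0.164). Over the 25 ER genes the median was 0.23 at 3 h, 0.15 at 24 h and 0.20 at 48 h. Medians over all genes tested were 0.0012, -0.0022 and 0.016. Of the 25 ER genes 0 were called for a change over time. At shares of 0.315% (24 h) and 2.17% (48 h) over all genes, this count does not set the list apart. Arrdc3 was level, at 0.31 ± 0.05, 0.31 ± 0.09 and 0.32 ± 0.09.

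The tubulins diverged over time, as 8 of the 12 lay above 0 at 48 h and the other 4 below. Tubb4b differed by -0.30 ± 0.06 at 3 h, 0.05 ± 0.06 at 24 h and 0.25 ± 0.06 at 48 h, and 48 h minus 3 h was 0.56 (edgeR adjusted p = 6.17e-05). Of the 12 tubulins 5 were called higher for 48 h minus 3 h, namely Tubb4b, Tubb5, Tubb2a, Tuba1a and Tubb4a, and 0 lower, against 0.535% of all genes higher. Tubb6 and Tubb2b, both called lower at 3 h with the block, stayed below 0, at -0.30 ± 0.10, -0.61 ± 0.10 and -0.23 ± 0.10 for Tubb6 and at -0.27 ± 0.09, -0.40 ± 0.09 and -0.25 ± 0.09 for Tubb2b. The list median was -0.29, -0.071 and 0.16 at the 3 times.

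Muscle genes were among those whose dose difference changed over time. The test of 24 h minus 3 h passed for 57 of 18122 genes (0.315%), with 0.011% above and 0.303% below 0. That of 48 h minus 3 h passed for 393 (2.17%), with 0.535% above and 1.63% below 0. Myh3, the embryonic myosin heavy chain, differed between 5 and 1 µM by 0.05 ± 0.07 at 3 h, -0.77 ± 0.07 at 24 h and -1.27 ± 0.07 at 48 h, and the slow myosin Myh7 by 0.14 ± 0.08, -0.73 ± 0.09 and -1.64 ± 0.09. Of 30 muscle genes 11 were called lower for 24 h minus 3 h and 23 for 48 h minus 3 h. Trib3 differed by 0.00 ± 0.10, 0.54 ± 0.15 and 1.09 ± 0.15, with 48 h minus 3 h at 1.09 (edgeR adjusted p = 0.000973), and Abcg1 by -0.44 ± 0.12, -0.92 ± 0.15 and -1.26 ± 0.15 (48 h minus 3 h -0.82, edgeR adjusted p = 0.0207).

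**Figure D4:**
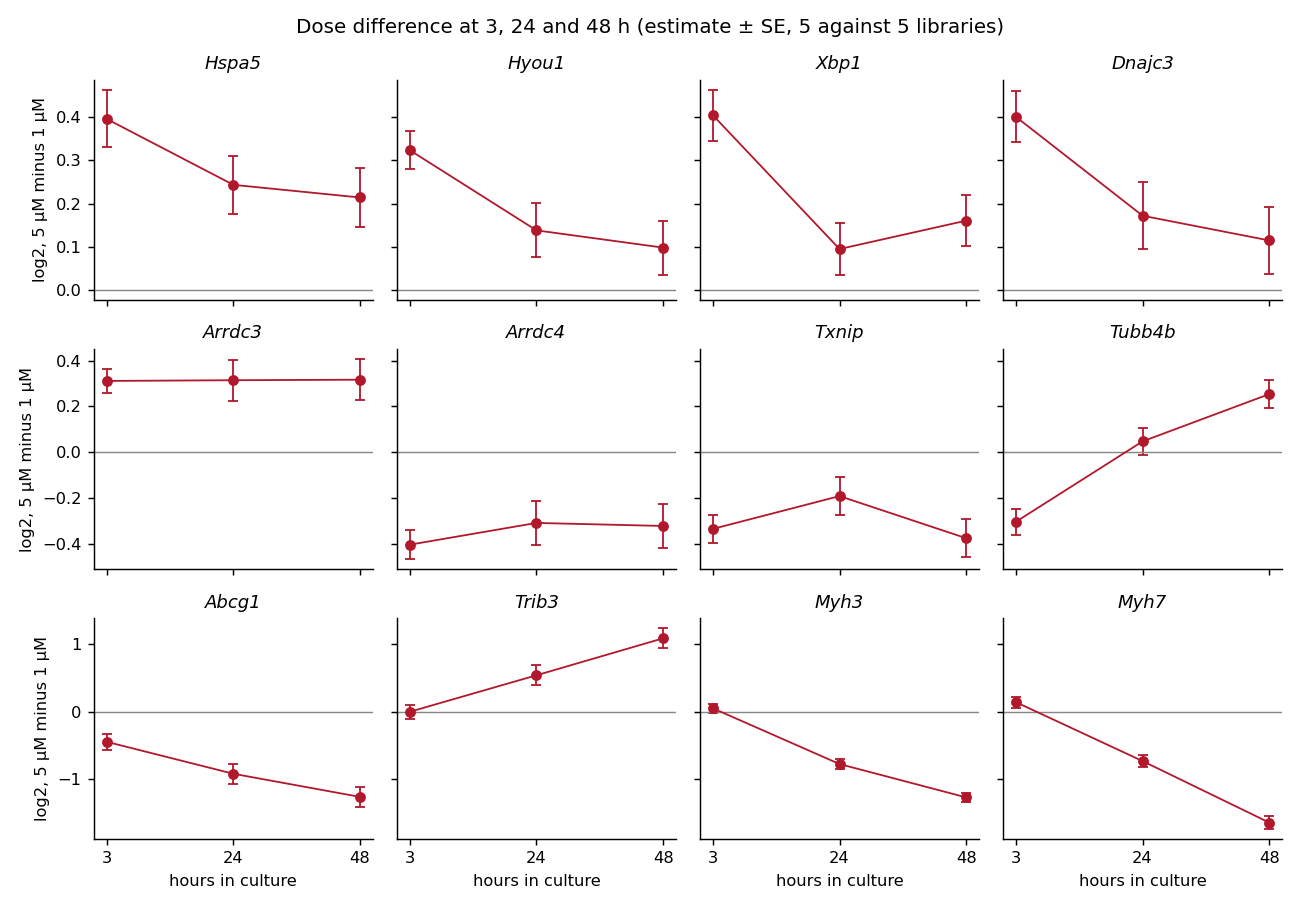
Difference between 5 and 1 µM BPAF (log2, estimate ± SE, 5 against 5 libraries) at 3, 24 and 48 h for 12 genes, with a grey line at 0 and 1 vertical scale per row. Values at 3 h come from the fit of the 10 libraries of that time. Those at 24 and 48 h come from 1 fit over the BPAF libraries of all 3 times, so the SEs rest on different fits. Hspa5 moves from 0.40 to 0.21, Tubb4b crosses 0, Trib3 climbs from 0.00 to 1.09, and Myh3 and Myh7 start near 0 and reach -1.27 and -1.64.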

How the data were processed

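Poly-A RNA of cultured mouse forelimb buds was sequenced. The deposited tables hold unnormalized counts of reads on each gene, per the file headers. Per the submitters' processing notes, CASAVA 1.8, STAR 2.5, HTSeq 0.6.1, DESeq2 and build mm10 were used. Whether reads were counted by strand is not given in the sources used here. A table lists a gene only with at least 2 reads over its 10 libraries, so absent entries (2.972% at 3 h) were read as 0. Joining gave 35212 genes, 31864 with reads at 3 h.

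Counts were fitted in edgeR 4.0.16 (R 4.3.3) with TMM scaling, filterByExpr (minimum count 10, total 15), quasi-likelihood F-tests over the pair of groups in question and Benjamini-Hochberg adjustment. Calls are at an adjusted p under 0.05. SE is the log2 difference divided by the root of F. Levels are TMM-scaled CPM over the 15 libraries at 3 h. Same-numbered 5 and 1 µM libraries correlated above 0.1 in all 5 pairs (0.154 to 0.404), so the replicate block is printed where it changes a call. The pairing comes from the data and from the shared numbers in the labels. Against DMSO, 4 of 5 pairs were above 0.1 at 5 µM and 3 of 5 at 1 µM (-0.115 to 0.150 and -0.077 to 0.364), short of all 5, and the lowest pair at each dose was that of DMSO replicate 3, which holds almost no Y-linked reads. The script was tested on simulated counts.

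Named are the called genes (up to 12 each way, with mean CPM 2 or more and without pseudogenes or predicted and Riken names), the genes of smallest p up to 24 in all, up to 4 called members of each of 40 lists, the 6 genes of smallest p in each test of times, and 22 set genes, of which 1 is not reported here; list members may be given with them. Members and lists were chosen with earlier results of these data known, and no list was tested as a set. Alternatives were RLE scaling, DESeq2 1.42.0, limma-voom (limma 3.58.1), no filter, the block, covariates, a fit of 15 libraries and single omissions. Promoters are RefSeq windows of GRCm38.p6, the first listed per gene.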

Additional observations from a re-analysis of the deposited data

Results flagged for a closer look

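In 160 groups of 5 values, 9 held a value far from the other 4, where chance flags about 1 in 20 groups. At 5 µM, Dnajc3 was 89.6 CPM in replicate 5, against 74.5 to 77.3 CPM in the other 4 libraries. Nog was 26.4 CPM in 5 µM replicate 2 against 31.2 to 32.5 CPM, and Magt1 was 184.9 CPM in that library against 170.6 to 173.3 CPM. Canx stood out in replicate 2 of the other groups, with 456 CPM at 1 µM against 398 to 410 CPM and with 425.6 CPM in DMSO against 390 to 397 CPM. Txnip was 214.9 CPM in DMSO replicate 5 against 172 to 182 CPM. Among differences within pairs, Tubb4b was -0.080 in pair 1 against -0.39 to -0.32 in the others, Abca1 was -0.69 in pair 1 against -0.30 to -0.15, and Lmbr1l was -0.39 in pair 3 against -0.30 to -0.27.

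The dose difference at 24 h differed from that at 3 h for 57 genes and at 48 h for 393, by a test of the difference itself (edgeR). For 24 h minus 3 h the values were -0.83 for Myh3, -0.98 and -0.78 for the M-band genes Myom2 and Myom1, -0.87 for Myh7, -0.88 for the actin gene Acta2, -0.82 for Ablim3 and -0.44 for the calcium release channel Ryr1. For 48 h minus 3 h they were -1.32 for Myh3, -1.58 for Myom2, -1.38 for Myom1, -1.79 for Myh7, -0.70 for Acta2, -1.31 for Ablim3, -2.51 for Myh7b, -0.98 for Ryr1 and -0.82 for Abcg1, with 0.56 for Tubb4b and 1.09 for Trib3 above 0.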

How the results depend on the processing

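The 6 called genes kept their direction in all 144 gene and setting combinations run and were called in 107 of them, with the size of the log2 difference between 0.27 and 0.45. The count for 5 against 1 µM was 6 with RLE scaling, 40 with DESeq2 (25 higher, 15 lower), 10 with limma-voom, 25 without a filter on low counts (15 higher, 10 lower), 50 with the replicate block, 4 with the Y-linked covariate, 0 with the haemoglobin covariate, 9 in 1 fit of all 15 libraries and 1 to 9 when single libraries were left out. Alternatives chosen after seeing the data gave 1 call without both replicates 5 and, with the replicate block, 153, 36, 27, 35 and 21 calls without pairs 1, 2, 3, 4 and 5. The cause was not tested.

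For 5 µM against DMSO the count was 133 with DESeq2, 74 without a filter, 62 with the replicate block, 5 with the haemoglobin covariate and 15 to 45 with single libraries left out, against 30. For 1 µM against DMSO it was 0 throughout, except for 1 call without DMSO replicate 4. For 24 h minus 3 h it was 110 with DESeq2 and 30 to 89 with single libraries left out, against 57, and for 48 h minus 3 h 314 to 462, against 393. Pairing by number gave 73 and 447 calls for the 2 times, and it changed no count by over 1.5 times there. For 1 µM BPAF at 48 h, titles and library codes disagree on which library is replicate 1 and which is replicate 2. The pairing followed the titles.

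Values near 0 changed sign. Between the doses Trib3 was -0.00013 with DESeq2, -0.00037 without a filter, -0.0056 with the replicate block, -0.019 with the Y-linked covariate and -0.0053, -0.041 and -0.030 with the block and without pairs 1, 3 and 4. Cyp1b1 was 0.32 with the haemoglobin covariate and 0.069 and 0.013 with the block and without pairs 2 and 4, where Col2a1 and Runx2 were -0.063 and -0.043 without pair 4. With single libraries left out, Trib3 ran between -0.094 and 0.063, Cyp1b1 between -0.33 and 0.15 and Col2a1 between -0.025 and 0.086. For 1 µM against DMSO, Hspa5 was -0.017 with the Y-linked covariate and -0.051 to 0.047 with single libraries left out, as against -0.012 to 0.046 for Arrdc3, -0.016 to 0.054 for Dnajc3 and -0.051 to 0.0028 for Hyou1. For Arrdc3, 48 h minus 3 h was -0.00031 with RLE scaling and -0.00031 with DESeq2, and -0.033 to 0.057 with single libraries left out, and 24 h minus 3 h was -0.015 with limma-voom, -0.0031 with the replicate block and -0.038 to 0.11 with single libraries left out. Depth limits genes at a few CPM, such as Derl3 and Esr1.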

Other observations

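Genes outside all lists were also called with the replicate block, which made 24 of its 50 calls, and these were singled out after their values were seen. Short transcripts were among the lower ones: the ribosomal protein genes Rps29, Rps28 and Rpl39 differed between 5 and 1 µM by -0.45, -0.32 and -0.30 on the log2 scale, the ATP synthase subunit gene Atp5e by -0.31 and the splicing factor gene Snrpg by -0.31 (edgeR adjusted p with the block of 0.00554, 0.0260, 0.0446, 0.0177 and 0.0328). Kpna2, a nuclear import adaptor, differed by -0.24, and Zfp949, a zinc finger gene, by 0.54 (0.0102 and 0.00125). Zfp949 averaged 50.2 CPM at 5 µM and 34.6 CPM at 1 µM, yet differed from DMSO by 0.03 at 5 µM. None of these genes was called without the block.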
